A study of Aspergillus nidulans with 6 samples.

Results

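The data set out here are the ChIP-Seq peaks on *nmt1* (AN8009) and *thiF* (AN3928), the genes of *Aspergillus nidulans* that code for the enzymes making the pyrimidine and the thiazole part of thiamine (vitamin B1). Members were the peaks of the count table that overlapped either gene by at least 1 bp in the ASM1142v1 genome. Each gene was overlapped by exactly 1 peak, so the members are 2 of 468 peaks. The immunoprecipitated protein was KaeA, a subunit of the KEOPS complex, which makes a universal modification of tRNA and whose contact with chromatin was the question of the experiment.

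All 6 libraries came from mycelia of a strain in which KaeA carries a haemagglutinin (HA) tag, grown in liquid minimal medium. In 3 of them (IP) the chromatin had been precipitated with the anti-HA antibody 12CA5, and the other 3 (input) held the DNA as it was before precipitation, from 3 biological experiments. Both groups share the labelled genotype, with the tagged allele kaeA::HA and the *A. fumigatus* pyrG marker on a pyrG89, argB2, pabaB22 background with nkuA replaced by argB, while the number written after riboB in the labels runs from riboB2 to riboB7 over the libraries. A precipitation from an untagged strain was not analysed here, so the only background is the input.

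Thiamine is assembled from a pyrimidine and a thiazole unit, which are made by separate branches and then joined. In fungi the pyrimidine unit is made by proteins of the NMT1/THI5 family and the thiazole unit by proteins of the Thi4 family, and in budding yeast proteins of both families give up one of their own residues as a substrate. Thiamine diphosphate, the active form, is the cofactor of enzymes such as pyruvate decarboxylase and transketolase. Genes of this synthesis are known in fungi for high transcription when thiamine is scarce and for repression when it is supplied.

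The *nmt1* peak lay on the body of its gene. The gene is annotated at II:486226-487797 (1572 bp) and the peak at II:486112-487765 (1654 bp), so the peak began 114 bp before the lower end of the gene, ended 32 bp short of its upper end and covered 98.0% of it. The summit, the position of highest read pileup that MACS2 gave, was at 486866, which is 640 bp into the gene or 40.7% of its length. Its location class in the deposited annotation was 5′ UTR, and the nearest gene assigned there was *dewA*, with a distance of 6531 bp, although the peak lies on AN8009. The strand of *nmt1* was not used here.

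The *thiF* peak lay toward the 3′ end of its gene. The gene (*thiA* in the RefSeq table) is annotated at II:2565797-2567358 (1562 bp) on the plus strand, and the peak at II:2566120-2567411 (1292 bp). The peak began 323 bp inside the gene, ran 53 bp past its 3′ end and covered 79.3% of it. The summit was at 2567182, at 88.7% of the gene length and 176 bp from its 3′ end. The deposited location class was promoter (within 1 kb), with a distance from the transcription start of 324 bp, although the whole peak lies downstream of that start.

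**Figure D1:**
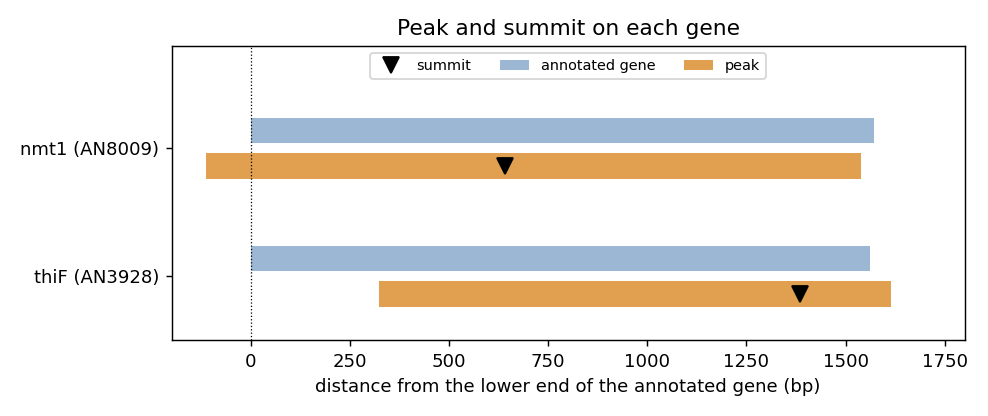
The annotated gene (blue), the peak (orange) and its summit (triangle) are drawn along the distance in bp from the lower end of each gene, with *nmt1* above *thiF*. The *nmt1* summit lies 640 bp into its gene and the *thiF* summit 1385 bp into its gene, near the 3′ end.

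Neither peak reached into a neighbouring gene, and no peak overlapped the genes next to them. The neighbours of *nmt1*, AN8008 and AN8010, end 216 bp before and begin 283 bp after it. Those of *thiF*, AN10492 and AN3927, lie 188 bp before and 300.0 bp after it. The peak nearest to *nmt1* was 2750 bp away at AN8007, the second gene before it, and the nearest to *thiF* was 100211 bp away at AN3954.

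The translated peak sequences carried the domains that name both families. On the *nmt1* peak, the Pfam domain NMT1/THI5 like (PF09084) was matched over 178 residues of an open reading frame of 292 amino acids (E-value 8.3e-55) and over 54 residues of another of 64 amino acids (E-value 2.8e-20). On the *thiF* peak, the Thi4 family domain (PF01946) was matched over 195 residues of an open reading frame of 226 amino acids (E-value 1.8e-82) and over 55 residues of one of 115 amino acids (E-value 1.6e-22). Both peaks thus cover sequence that codes for the domain of their family.

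The authors called the peaks once, on reads merged over replicates, so the values of MACS2 have no replicate spread. At the *nmt1* summit the pileup was 423 reads and IP exceeded the local background by a fold enrichment of 2.04, with a −log10 q-value of 36.3. At the *thiF* summit the pileup was 193 reads and the fold enrichment 1.86, with a −log10 q-value of 12.2. The *nmt1* peak ranked 57 and the *thiF* peak 83 of 468 by fold enrichment, against a median of 1.53 over all peaks. By pileup, *nmt1* ranked 39 and *thiF* 221, close to the median of 189 reads. The peaks thus differed more in height than in enrichment.

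The depth on peaks, as the sum of counts over the 468 peaks, was from 252925 to 377238 in the IP libraries and from 162458 to 278412 in the input libraries. Among the IP libraries, replicates 1 and 3 were the most alike and replicate 2 stood apart from both (chi-square per degree of freedom of 4.28 between replicates 1 and 3, against 9.82 and 11.0 for the pairs with replicate 2), while the input pairs gave 1.96 to 2.15. Results that rest on IP replicate 2 are therefore given with and without it.

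The raw counts on the *nmt1* peak were 2929, 1923 and 2091 in IP replicates 1, 2 and 3, against 1744, 2055 and 1221 in input replicates 1, 2 and 3. Counts were then scaled by TMM factors over the peaks, which centres fold changes on the typical peak, so that a value of 0 on the log2 scale means the IP to input ratio of the typical peak and not that of the genome. After scaling, the *nmt1* peak had 2116, 2103 and 2048 normalised reads in IP, against 1862, 1861 and 1908 in input. All 3 IP libraries lay above all 3 input libraries, and the replicates of each group were close together. The share of all peaks with such a separation was not counted, so the separation is only a description.

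The mean normalised read count on *nmt1* was 2089 ± 36.1 in IP and 1877 ± 26.7 in input (SD, n = 3 each). On the log2 scale IP over input was 0.15 ± 0.07 (SE), a 1.11-fold difference, with a 95% interval from 0.999-fold to 1.24-fold. It did not pass the test (edgeR quasi-likelihood test, adjusted p = 0.198 over 468 peaks).

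The raw counts on the *thiF* peak were 1208, 598 and 767 in IP replicates 1, 2 and 3, against 627, 693 and 407 in input replicates 1, 2 and 3. Scaled in the same way, the peak had 873, 654 and 751 normalised reads in IP, against 669, 628 and 636 in input. IP replicate 2 lay between the input libraries, so the groups overlapped, whereas IP replicates 1 and 3 lay above all of them.

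The mean on *thiF* was 759 ± 110 normalised reads in IP and 644 ± 22.1 in input (SD, n = 3 each), so the IP libraries were the more spread. This was a log2 fold change of 0.24 ± 0.10 (SE), a 1.18-fold difference, with a 95% interval, not adjusted for the number of peaks, from 1.02-fold to 1.37-fold. It did not pass the test either (edgeR quasi-likelihood test, adjusted p = 0.120). Without IP replicate 2 the log2 fold change was 0.33 and passed the test (edgeR, adjusted p = 4.3e-04), and without IP replicate 1 it was 0.12 (edgeR, adjusted p = 0.530). The value for *thiF* thus depended on single IP libraries.

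**Figure D2:**
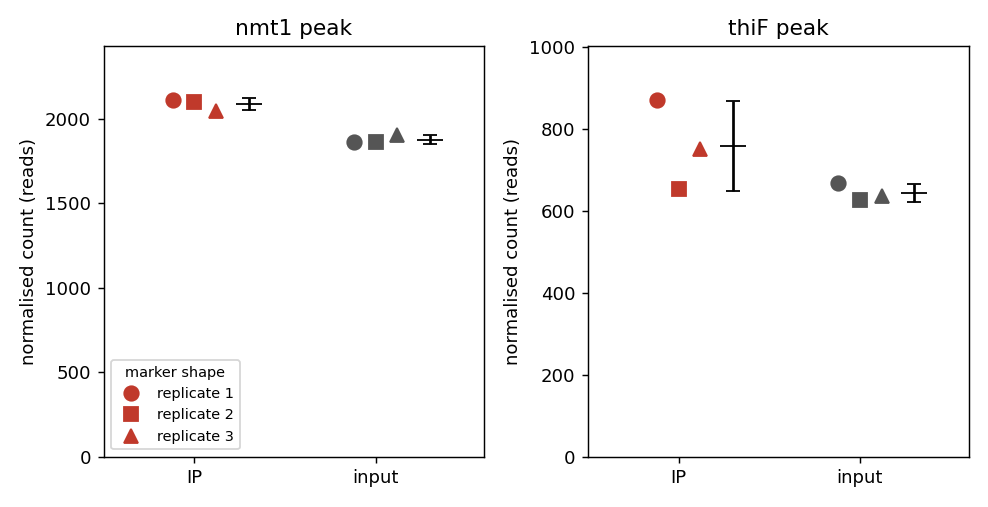
Normalised read counts (reads, axis from 0) on the *nmt1* and the *thiF* peak are shown for IP (red, left) and input (grey, right), with the marker shape giving the replicate number and the bar the mean ± SD of 3 libraries. The *nmt1* groups do not overlap, and on *thiF* IP replicate 2 (654 normalised reads) lies among the input libraries. The share of all peaks whose groups do not overlap was not counted.

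Of the 2 members, 0 were called at an adjusted p below 0.05, and 1, *thiF*, was below 0.05 before adjustment. With DESeq2, 0 were called and both were below 0.05 before adjustment. Over all peaks 76 of 468 were called in the edgeR test, which is 16.2%, and 52 of them, or 11.1% of all peaks, were higher in IP. By log2 fold change *thiF* ranked 60 and *nmt1* 90 of the 468 peaks, whose median was -0.02. Both members were thus above the typical peak by estimates whose errors did not separate them from it after adjustment.

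Comparing libraries of the same number gave the same direction each time. How many of all peaks did the same was not counted, so this agreement is only a description. The log2 ratio of IP to input on *nmt1* was 0.18, 0.18 and 0.10 for numbers 1, 2 and 3, and on *thiF* it was 0.38, 0.06 and 0.24. These numbers name biological replicates, and the libraries that share one did not deviate together (correlations of deviations from -0.11 to 0.03).

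The members were then compared with each other through the ratio of their raw counts within a library, which does not depend on how libraries are scaled. The *nmt1* to *thiF* count ratio was 2.42, 3.22 and 2.73 in IP replicates 1, 2 and 3, against 2.78, 2.97 and 3.00 in input replicates 1, 2 and 3. IP replicate 2 lay above all input values, and IP replicates 1 and 3 lay below all of them. The mean ratio was 2.79 ± 0.40 in IP and 2.92 ± 0.12 in input (SD, n = 3 each), a difference of -0.07 on the log2 scale (exact permutation test, two-sided, p = 0.6, where the smallest p possible is 0.1). Without IP replicate 2 the difference was -0.18 (exact permutation test, p = 0.1, again the smallest possible), and without IP replicate 1 it was 0.023 (exact permutation test, p = 1). A difference in enrichment between the genes was not detected, and a design of this size could not have passed a threshold of 0.05.

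Per kilobase of peak the genes stood far apart in level, also in input. The *nmt1* peak had 1263 ± 21.8 normalised reads per kb in IP and 1135 ± 16.1 in input, and the *thiF* peak had 588 ± 84.8 in IP and 499 ± 17.1 in input (SD, n = 3 each). The level on *nmt1* was thus 2.15 times that on *thiF* in IP and 2.28 times in input. In input, 399 of 468 peaks had a lower level per kb than *nmt1*, and only 10 had a lower level than *thiF*, against a median of 656 normalised reads per kb over all peaks. The copy number and mappability of the regions were not examined.

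Both members were long peaks. The *nmt1* peak ranked 43 and the *thiF* peak 70 of 468 by length, against a median of 397 bp. Among the 102 peaks of at least 1000 bp, a limit chosen after the values were seen, log2 fold changes had a median of 0.17 and 36 peaks were called, each higher in IP. In that set *thiF* ranked 39 and *nmt1* 55 by log2 fold change, so *nmt1* was just below the median of the peaks of its length. When the trend of fold change on length was removed and the model refitted, the log2 fold change was -0.11 ± 0.07 (SE) for *nmt1* (edgeR, adjusted p = 0.477) and 0.05 ± 0.10 (SE) for *thiF* (edgeR, adjusted p = 0.850).

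**Figure D3:**
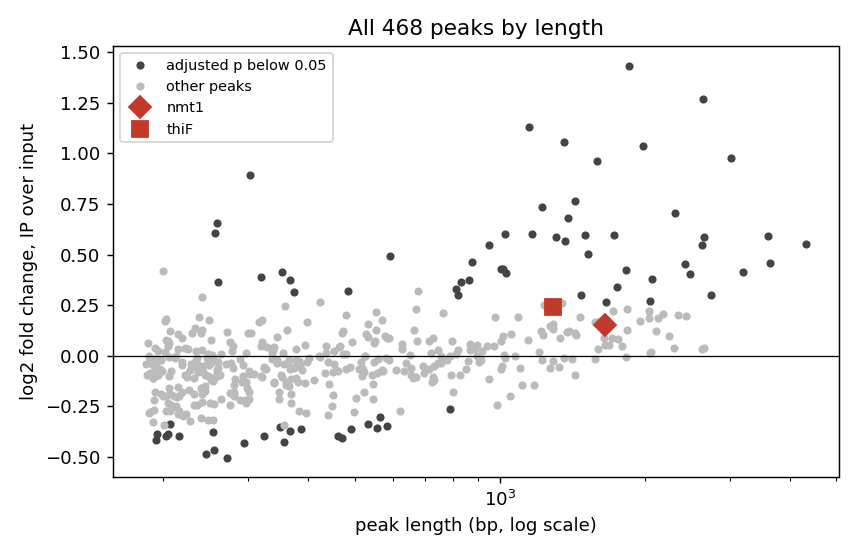
The log2 fold change of IP over input is plotted against peak length (bp, log scale) for all 468 peaks, with called peaks dark, others grey, *nmt1* as a red diamond and *thiF* as a red square. Both genes lie among long peaks that were not called, *nmt1* at 0.15 and *thiF* at 0.24.

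By location class, the *nmt1* peak belongs to the 51 peaks of class 5′ UTR, 29 of them called and higher in IP, with 0.37 as the median log2 fold change. At 0.15, *nmt1* was below that median. The gene assigned to this peak was *dewA*, although the peak lies on AN8009. Whether the class describes the position of the *nmt1* peak was not examined. The *thiF* peak belongs to the 26 peaks of class promoter, of which 3 were called, 2 of them higher in IP, with a median of 0.00, and at 0.24 it was above that median. As given above, the whole *thiF* peak lies downstream of its transcription start, so the class does not describe its position.

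Other genes of thiamine metabolism were looked for by words in gene symbols and in the deposited domain descriptions. No symbol or synonym of the 10516 genes of the RefSeq table contained the words searched, such as thiamin, thiazole and nmt1. That search missed the members too, whose symbols there are ANIA_08009 and *thiA*. It therefore cannot show which other genes of the pathway exist or lack a peak. The domain descriptions held them in 4 peaks, namely the members and 2 peaks on enzymes that use thiamine diphosphate. These were the peak on AN4888, with the N-terminal, central and C-terminal domains of thiamine pyrophosphate enzymes, and the peak on *tktA* (AN0688), with the thiamine diphosphate binding domain of transketolase, an enzyme of the pentose phosphate pathway.

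On AN4888 (III:656051-658291, 2241 bp, 92.5% of the gene) the normalised reads were 1420, 1275 and 1329 in IP, against 1271, 1254 and 1241 in input. The groups did not overlap, by a small margin, which is only a description, as for *nmt1*. A log2 fold change of 0.10 ± 0.08 (SE) did not pass the test (edgeR, adjusted p = 0.546).

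On *tktA* (VIII:2734006-2734258, 253 bp, 8.16% of the gene, and also overlapping AN0687) they were 171, 149 and 169 in IP, against 161, 165 and 167 in input. Here the groups overlapped. It had a log2 fold change of 0.00 ± 0.12 (SE) (edgeR, adjusted p = 0.994). Of these cofactor-using enzymes 0 of 2 peaks were called, none was below 0.05 before adjustment, and DESeq2 called 0 as well.

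Both thiamine genes are named in the study's list of genes found by ChIP-Seq and in its list of genes that also changed expression in the *kaeA19* mutant. The study chose the first of these on the same libraries, so it is not independent evidence. By its methods, the regions of that list passed its own edgeR test of IP against input after FDR correction. Neither member passed the test here, and the reason for this difference was not tested. The mutant's transcriptome was not analysed here. Of the 8 other genes taken from the second list, 7 were matched to 1 peak each and *prxA* (AN8692) was matched to no peak. Whether the RefSeq table holds a gene under that number was not examined.

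In this set 5 of 7 peaks passed the test, each with more reads in IP, against 11.1% of all peaks called higher in IP, but the study listed these genes as ChIP-Seq hits on the same libraries and nothing is read from the count. Their log2 fold changes had a median of 0.45 and a range from 0.17 to 0.60. The called ones were the C-4 sterol methyl oxidase genes AN8907 (0.58 ± 0.08, SE) and AN6973 (0.60 ± 0.08), the delta-9 fatty acid desaturase gene AN6731 (0.60 ± 0.08), and *aclB* (0.45 ± 0.08) and *aclA* (0.34 ± 0.08), which code for ATP citrate synthase. The uncalled ones were AN2042, a predicted cytochrome P450 reductase (0.21 ± 0.09), and *hapX*, a bZIP regulator of iron metabolism (0.17 ± 0.08). The thiamine genes, at 0.24 and 0.15, had values like those of AN2042 and *hapX*. Whether they differ from the lipid and citrate genes of the list was not tested.

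The thiazole unit of thiamine holds sulfur, and the peaks on 3 genes that the study grouped under sulfur compounds were set beside the members. On *trxA* (AN0170), which codes for thioredoxin, the log2 fold change was 0.73 ± 0.08 (SE), and on *cpcA* (AN3675), the regulator of amino acid synthesis, it was 0.38 ± 0.08, both called in the edgeR test. The methionine synthase gene *metH* (AN4443) had 2 peaks, of which the one of 2054 bp was called (0.27 ± 0.08) and the one of 420 bp was not (0.00 ± 0.12). In all, 3 of these 4 peaks were called, against 16.2% of all peaks, and these genes too were drawn from the study's ChIP-Seq hits on the same libraries, so this count is a description.

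**Figure D4:**
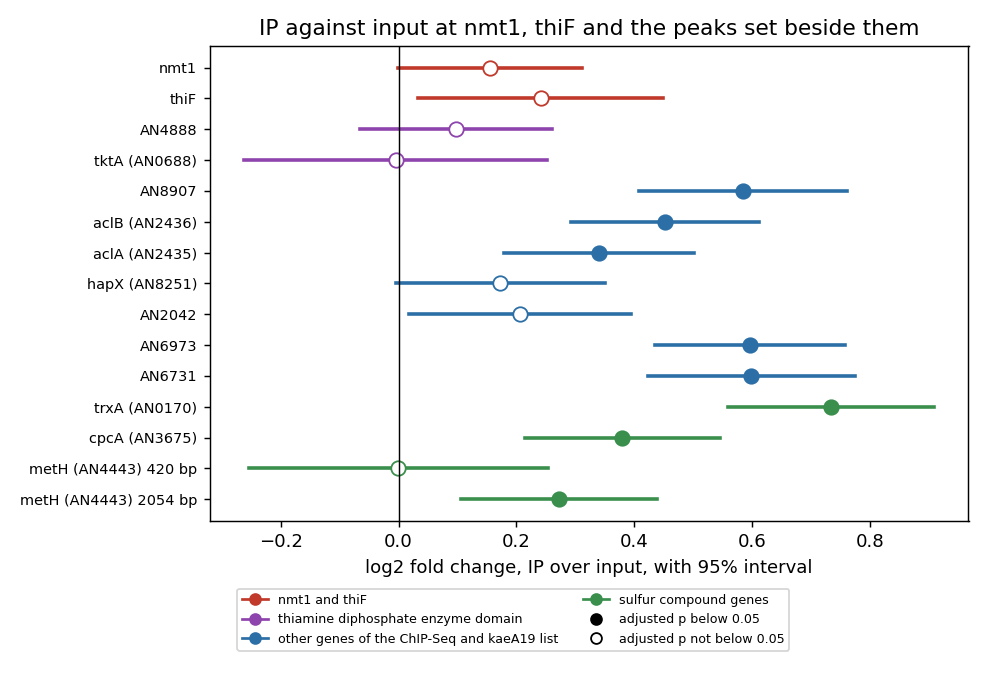
The log2 fold change of IP over input is shown with its 95% interval for *nmt1* and *thiF* (red), the peaks with a thiamine diphosphate enzyme domain (purple), the other genes of the ChIP-Seq and *kaeA19* list (blue) and the sulfur compound genes (green); filled points passed an adjusted p of 0.05. The points of *nmt1* (0.15) and *thiF* (0.24) are open; the blue and green peaks are on genes that the study listed as ChIP-Seq hits on the same libraries, and 16.2% of all peaks were called.

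The peaks nearest to the members on the chromosome had estimates of either sign, and none passed the test, which 16.2% of all peaks passed. The peak at AN8007 had 254, 219 and 192 normalised reads in IP, against 277, 255 and 283 in input. All IP libraries were lower, which is only a description, as for *nmt1*. Its log2 fold change of -0.28 ± 0.12 (SE) did not pass the test (edgeR, adjusted p = 0.147). A negative value here means an IP to input ratio below that of the typical peak. By MACS2 the fold enrichment of IP at this peak was 1.36. On the other side of *nmt1*, 89770 bp away, the peak on *gpdA* (AN8041), which codes for the glycolytic enzyme glyceraldehyde-3-phosphate dehydrogenase, had a log2 fold change of 0.23 ± 0.08 (edgeR, adjusted p = 0.058). The nearest peaks on either side of *thiF*, at AN3954 and AN10461, had -0.12 ± 0.13 (edgeR, adjusted p = 0.699) and -0.09 ± 0.09 (edgeR, adjusted p = 0.668).

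The peaks on genes whose levels over the 6 libraries were most like those of each member were found by Pearson's r of scaled log2 counts (log2 CPM). For *nmt1* they were AN5781, a putative heat shock protein gene (r = 0.993), *hsp104* (AN0858), which codes for a disaggregase (r = 0.991), and *niiA* (AN1007), the nitrite reductase gene (r = 0.987). All 3 had larger log2 fold changes than *nmt1*, at 1.06, 0.98 and 0.46, and were called. A high r therefore marks a similar pattern over the libraries and not the same size of difference.

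For *thiF* the most alike were AN4888, the thiamine diphosphate enzyme gene above (r = 0.991), AN7166 (r = 0.969) and AN6475 (r = 0.930). Their log2 fold changes were 0.10, 0.41 and 0.16, and AN7166 was called. Between the members themselves r was 0.676, which placed *thiF* at rank 73 among the peaks on genes most like *nmt1* and *nmt1* at rank 55 among those most like *thiF*. These correlations are over 6 libraries that share groups and depth, and are given as a description.

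The fold changes of both members moved with the scaling and less with the test. When only library size was used, the median of all peaks was -0.13 and the log2 fold changes were 0.05 for *nmt1* and 0.14 for *thiF*, neither called. When the fold changes were shifted so that their median equalled that of the MACS2 fold enrichments (0.62 on the log2 scale), they were 0.79 for *nmt1* and 0.88 for *thiF* and both were called, as were 461 of all 468 peaks. The 60 peaks enriched 2-fold or more by MACS2 were also scaled among themselves. There the value for *nmt1* was -0.31 and was called (edgeR, adjusted p = 5.0e-05), and *thiF*, at an enrichment of 1.86, was not among them. Those peaks were kept for their enrichment in IP, by which *nmt1* ranked 57. A value of 0 there means the IP to input ratio of the typical peak so kept. No level in IP below that in input is therefore read from -0.31, and what sets its sign was not tested.

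**Figure D5:**
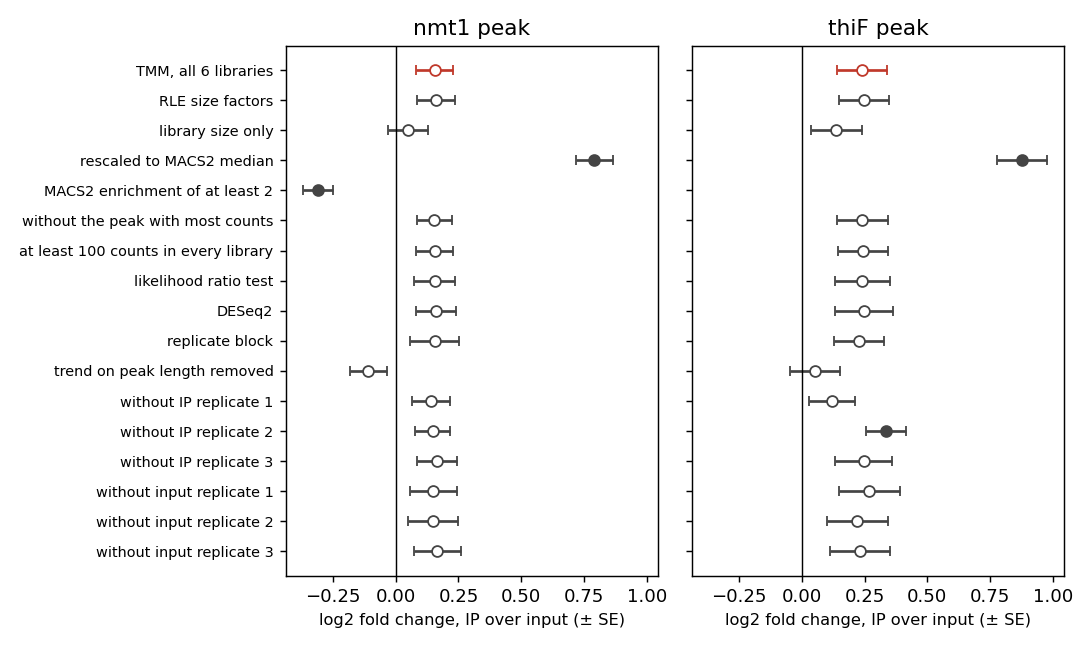
The log2 fold change of IP over input (± SE) of the *nmt1* (left) and *thiF* (right) peak is shown for the fit with TMM factors and all 6 libraries (red) and for each alternative (dark), with filled points below an adjusted p of 0.05. Values for *nmt1* run from -0.31 to 0.79 and those for *thiF* from 0.05 to 0.88, and *thiF* is filled without IP replicate 2 and after rescaling to the MACS2 median. The filled *nmt1* point at -0.31 comes from peaks kept for their enrichment in IP.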

How the data were processed

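The authors used Trimmomatic for trimming, BWA for mapping to ASM1142v1 and Picard against optical duplicates, and called peaks with MACS2 on merged replicates. The deposited table holds raw counts per library on 468 peaks; how reads were assigned to peaks is not given in the sources used here. The deposited peak list gives the summit pileup (signal), the fold enrichment (a ratio) and −log10 p-values and q-values of MACS2. Location classes came from ChIPseeker and domains, with E-values as a score of the match, from InterProScan, as deposited by the authors. The authors' edgeR table (log2 fold changes, p-values) was not used.

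Counts were tested here with edgeR 4.0.16 (quasi-likelihood, TMM, no block, Benjamini-Hochberg over 468 peaks, threshold 0.05, R 4.3.3, limma 3.58.1), with DESeq2 1.42.0 as an alternative. Normalised counts were obtained from the effective library sizes, scaled to their mean; SE is the absolute log2 fold change over the square root of F. The log2 CPM used a prior count of 2. The script was tested on simulated data. RefSeq genes of ASM1142v1 that shared 1 bp or more with a peak were assigned to it (pandas 2.3.3, numpy 2.4.6, Python 3.11.15, matplotlib 3.10.9). No libraries were copies of each other. Precision is limited by 3 libraries per group and by depth (162458 to 377238 counts on peaks).

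Named genes were those overlapping or next to the members, peaks with thiamine terms in their domains, the 3 peaks most like each member, and other genes of the study's lists. Members and lists were chosen with earlier results of these data known. A planned search for motifs was not run. Libraries that share a replicate number did not deviate together, which cannot show that they came from separate experiments. The main fit made no use of a pairing, and a fit with a replicate block is given below.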

Additional observations from a re-analysis of the deposited data

How the results depend on the processing

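The log2 fold change of *nmt1* kept its sign and stayed uncalled in 7 of 10 alternatives and in all 6 fits with a library left out (0.14 to 0.17, adjusted p from 0.110 to 0.446). It turned to -0.11 with the length trend removed. Among peaks of MACS2 enrichment of at least 2 it was -0.31 and called, on a scale centred on peaks kept for their enrichment. It was 0.79 and called after rescaling to the MACS2 median, which shifts all peaks by construction. That of *thiF* stayed uncalled in 8 of 9 alternatives and was called after rescaling (0.88); among fits with a library left out it ran from 0.12 to 0.33 and was called in 1 of 6, without IP replicate 2. The count of called peaks, 76, was 461 after rescaling and 22 of 60 among peaks of enrichment of at least 2, and ran from 47 (without IP replicate 1) to 132 (without IP replicate 2), with 49 without input replicate 1. Of the called peaks, 52 were higher and 24 lower in IP, against 38 and 60 by library size only and 34 and 24 with the length trend removed.

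With a replicate block, 83 peaks were called, and the values were 0.15 for *nmt1* (edgeR, adjusted p = 0.341) and 0.23 for *thiF* (edgeR, adjusted p = 0.101). Not every IP library correlated best with the input of its own number. For the count ratio, pairing by number left the difference at -0.07 (exact sign-flip test, p = 0.5), and leaving out a library gave -0.18 (without IP replicate 2) to 0.023 (without IP replicate 1). Apart from the shift of all peaks on rescaling to the MACS2 median, the cause of these changes was not tested.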
